A study of Mus musculus with 32 samples.

Results

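Bone marrow-derived macrophages (BMDMs) can be driven into necroptosis by a Toll-like receptor 4 (TLR4) ligand or by an interferon once caspases are blocked, and the RNA levels of wildtype (WT) BMDMs under these stimuli were set side by side. The members were the 2 arrays of WT cells given lipopolysaccharide (LPS) with the pan-caspase inhibitor zVAD (LPS+zVAD) and the 2 arrays of WT cells given interferon beta with zVAD (IFNβ+zVAD), 4 of the 32 arrays of the series, chosen by their genotype and treatment labels and by no measured value. The cells were macrophages grown from the marrow of C57BL/6 mice, harvested 6 h after the stimuli were added. LPS was used at 100 ng/mL per the labels, which list 1000 U/mL for IFNβ, while doses written elsewhere by the study differ from these, so the doses behind the comparison are not settled and ligand and dose cannot be told apart. The remaining arrays, 2 per group, held WT cells that were untreated, given LPS alone, IFNβ alone or zVAD alone, or given LPS+zVAD or IFNβ+zVAD together with necrostatin-1 (Nec-1), an inhibitor of the RipK1 kinase. They also held Ifnar1-/- cells, from mice without the IFNAR1 chain of the receptor for type I interferons, under the same 8 treatments, and all 16 groups entered the shared estimate of the spread. Nothing states that the 2 arrays of a group came from separate mice or cultures, so all p-values measure the spread between arrays, which may be technical. In bulk RNA such as this, fewer cells of a type and less RNA per cell cannot be told apart.

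LPS binds TLR4 with its partners CD14 and MD-2 and signals through the adaptor MyD88, which activates NF-κB and MAP kinases, and through the adaptor TRIF, which activates IRF3 and thereby the secretion of IFNβ. IFNβ binds the receptor chains IFNAR1 and IFNAR2, whose kinases JAK1 and TYK2 activate the transcription factor ISGF3, which binds interferon-stimulated response elements. When caspase-8 is blocked, RipK1 and RipK3 assemble the necrosome, and RipK3 phosphorylates MLKL, which then ruptures the plasma membrane. LPS therefore reaches the interferon pathway too, through the IFNβ that the cells make, whereas IFNβ does not engage TLR4.

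The signal of a gene is given on the log2 scale after quantile normalization, and a difference is LPS+zVAD minus IFNβ+zVAD, so that a positive value stands for a higher signal in LPS+zVAD. A gene is called higher or lower where limma's adjusted p lay below 0.05 over all 15879 genes tested. Between 58.2% and 66.0% of spots on the 4 arrays were well above background, and no spot was saturated. All 10 macrophage markers on the array, among them Csf1r and Adgre1, were above background on all 4 arrays. Of these 10, 1 was called higher in LPS+zVAD, Cd68 (0.58, adjusted p 0.0101). Another 2 were called lower, Spi1 (-0.82, adjusted p 0.0379) and Fcgr1 (-3.14, adjusted p 0.00398). Of the tested markers of other cell types, the fibroblast gene Dcn was called (1.38, adjusted p 0.0233), a call lost without IFNβ+zVAD replicate 1 (1.13). While 13 of all these markers were above background on none of the 4 arrays, many were above it on all 4. Among these were 8 of 9 neutrophil, 5 of 6 B cell, 4 of 5 dendritic cell and 4 of 6 fibroblast markers. For T and NK cells it was 2 of 7, for erythroid cells 1 of 5 and for mast cells and basophils 0 of 5. Some were bright, such as the dendritic cell marker Siglech (15.84 and 15.63 against 15.91 and 15.94). The part of other cells in the results was not tested. The dendritic cell marker Clec9a, which the filter on dim probes kept out of the test, read 3.90 and 4.86 in LPS+zVAD against 9.42 and 9.12 in IFNβ+zVAD. The 8 treatments of each genotype and replicate number shared a slide, with replicate 1 of both stimuli on one slide and replicate 2 on another, and each treatment kept its position on the slide, so position and treatment cannot be told apart. No slide held both genotypes, so genotype and slide cannot be told apart where levels are set across genotypes. The Ifnar1-/- LPS+zVAD+Nec-1 pair, which enters the shared estimate of the spread, stood apart from the rest, with a correlation of 0.947 between its arrays against 0.973 to 0.991 in the other groups.

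Of the 15879 genes, 1651 were called higher (10.4%) and 3237 lower (20.4%) in LPS+zVAD, 30.8% together. At least 2-fold separated the groups for 3209 of the called genes, and at least 4-fold for 904, of which 333 were higher and 571 lower. For 4711 genes, 29.7%, the 95% interval of the difference lay within 1 log2 unit on either side of 0. Without LPS+zVAD replicate 2, 3229 genes were called, 900 of them higher, and without IFNβ+zVAD replicate 1 there were 1010 higher. The replicate block, with the slide as a term, called 2863 higher and 4252 lower, and a fit to the 4 arrays alone called 846 genes, 218 higher and 628 lower. Where a count is followed by counts with 1 array left out, these stand in the order LPS+zVAD replicate 1, LPS+zVAD replicate 2, IFNβ+zVAD replicate 1 and IFNβ+zVAD replicate 2.

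The 12 largest called rises ran from 4.76 (Depp1) to 5.98 (Ifi202b). Endothelin-1 (Edn1), a vasoconstrictor peptide, read 15.42 and 16.04 in LPS+zVAD and 9.74 and 10.22 in IFNβ+zVAD, a difference of 5.75 (SE 1.1, adjusted p 0.000564). Olr1, which encodes the scavenger receptor LOX-1 for oxidized LDL, read 12.79 and 12.70 against 5.90 and 8.08 (5.75, SE 1.15, adjusted p 0.000818). Cxcl1, a neutrophil-attracting chemokine, read 17.25 and 16.86 against 10.38 and 12.51 (5.61, SE 1.46, adjusted p 0.00625). For Cxcl1 the IFNβ+zVAD arrays lay farther apart from each other than the LPS+zVAD arrays did. Without IFNβ+zVAD replicate 1 the Cxcl1 difference was 4.54 (adjusted p 0.0796), which was no longer called. Sphk1, sphingosine kinase 1, read 14.93 and 15.71 against 10.05 and 10.13 (5.23, SE 0.39, adjusted p 1.02e-07), the smallest adjusted p among the largest rises. The probe of Ifi202b, a gene of the interferon-inducible Ifi200 family, had the largest of the called rises (5.98, SE 0.82, adjusted p 2.59e-05), with 11.42 and 12.59 against 4.88 and 7.17. The Ifi200 genes are near-identical in parts, so a probe of one member can also take signal from others. Which member gave the signal of this probe was not tested. The serotonin receptor Htr2a (5.22), the TGF-β trap Vasn (5.05), the replication-licensing factor Cdc6 (5.03, above background on 1 of the 2 IFNβ+zVAD arrays), the uncharacterised Gm13889 (4.90), the interleukin-1 receptor Il1r1 (4.90), Trim69 (4.86) and Depp1 completed the 12 largest called rises. Il1r1 was not well above background on either IFNβ+zVAD array and was at least 29.2-fold brighter in LPS+zVAD.

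The 12 largest called falls ran from -5.14 (Ddx4) to -4.47 (Bmf). Ddx4, a germ-cell RNA helicase, read 8.05 and 6.94 in LPS+zVAD and 12.58 and 12.68 in IFNβ+zVAD (SE 0.82, adjusted p 0.000108). Il12rb1, the receptor chain shared by IL-12 and IL-23, read 7.31 and 6.74 against 11.95 and 11.63 (-4.77, SE 0.40, adjusted p 2.72e-07). Fanca, of the Fanconi anaemia DNA repair complex, read 8.18 and 6.82 against 12.12 and 12.11 (-4.61, SE 0.35, adjusted p 1.02e-07). These genes were picked for the size of their called fall, so the gap between their pairs largely follows from that choice. Gbp4 (-4.66), a guanylate-binding protein of cell-autonomous immunity, and Cxcl9 (-4.61), a chemokine for activated T cells, were lower in LPS+zVAD, as were the aryl hydrocarbon receptor repressor Ahrr (-4.55) and the purinergic receptor P2ry13 (-4.48). Bmf, a pro-apoptotic BH3-only gene, was not well above background on either LPS+zVAD array and was at least 22.2-fold brighter in IFNβ+zVAD. The uncharacterised transcripts I830077J02Rik (-4.78) and AI447881 (-4.66) are measured by probes of the same strand of chromosome 3 that lie at 105728827 to 105728886 and 105727530 to 105727589 in the mm9 coordinates of the array design, so they may not be separate observations. The lncRNA 4932415M13Rik (-4.83) and the synaptic adhesion gene Lrrc4 (-4.78) made up the remainder of the 12 largest falls, and without LPS+zVAD replicate 2 Lrrc4 was at -2.91 (adjusted p 0.0784).

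**Figure D1:**
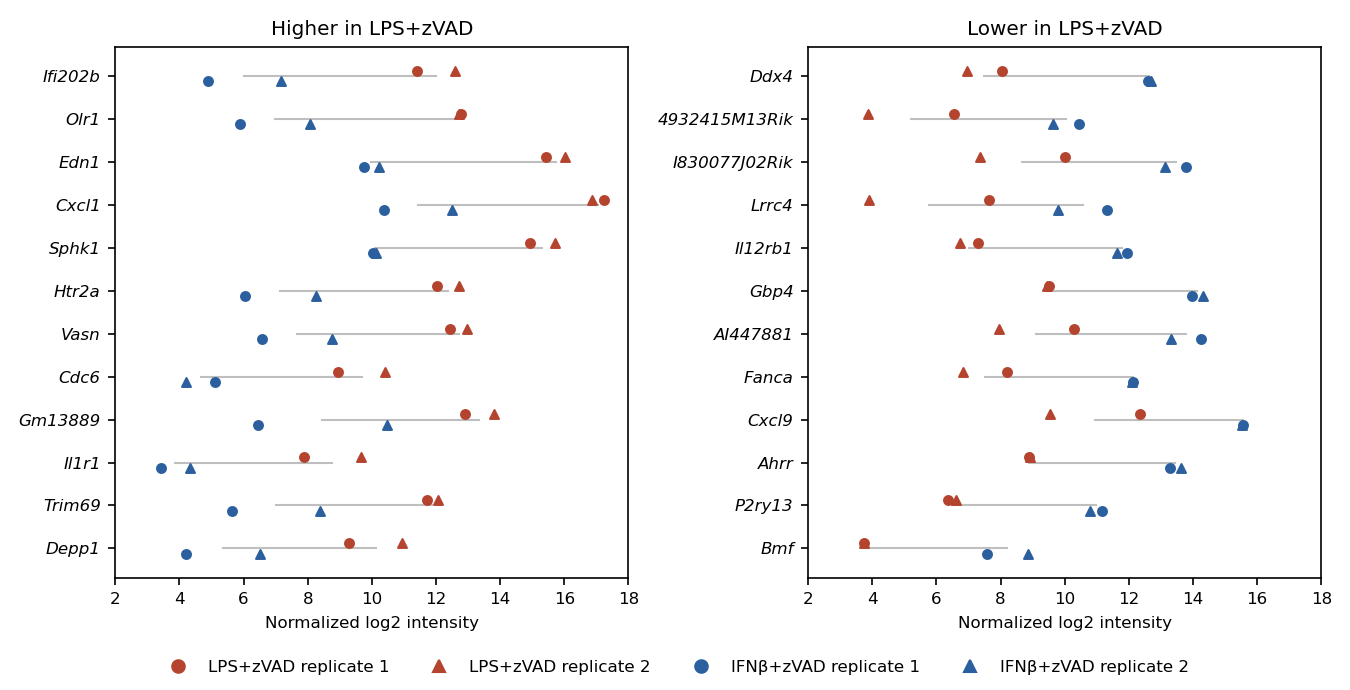
Normalized log2 intensity on each of the 4 arrays for the 12 genes with the largest called rise (left) and the 12 with the largest called fall (right) in LPS+zVAD against IFNβ+zVAD in WT BMDMs. Circles are replicate 1, triangles replicate 2 and the grey line joins the group means, from Ifi202b (5.98) to Ddx4 (-5.14). The genes were picked for the size of their called difference, so the gap between the pairs largely follows from that choice.

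Promoters of the called genes were read for the letters of the binding sites behind the named pathways, NF-κB (GGGA, any base, TTTCC), AP-1 (TGANTCA, where N is any base) and the interferon-stimulated response element (GAAA, any 2 bases, GAAA), on both strands from 250 bases before to 50 bases after each RefSeq start (build GRCm38.p6). None of the motifs contains another. Of the 12051 tested genes with a promoter in the table, 0.573% held the NF-κB letters, 7.04% the AP-1 letters and 4.0% the response element letters. A comparison of called genes with these shares is void, because the table held promoters for 225 of the 333 genes at least 4-fold higher and 438 of the 571 at least 4-fold lower (67.6% and 76.7%), too few for the shares to be set side by side. The following windows are therefore shown to place the letters in the promoters of genes that carry the contrast, with the match in capitals and no claim that a factor binds there. They are, in order, the NF-κB letters of Cxcl1 and the AP-1 letters of Olr1, Sphk1 and Il1a, all higher in LPS+zVAD, and the response element letters of Edn1, higher, of Ifit1bl1, lower, and of Ifit1, which was not called. The AP-1 letters of Cxcl9, lower in LPS+zVAD, are shown last.
Cxcl1, chr5:90891164-90891193, plus strand: cctgtactccGGGAATTTCCctggcccgga
Olr1, chr6:129507207-129507236, minus strand: cccgcgacggtTGAGTCAtcctctgctaga
Sphk1, chr11:116531776-116531805, plus strand: gagcgtgtcgcTGAGTCAccttctcggaag
Il1a, chr2:129309966-129309995, minus strand: gcagagaagccTGACTCAgacttaagtctc
Edn1, chr13:42301388-42301417, plus strand: tagtgggtgtTTTCTTTTTCttagccctgc
Ifit1bl1, chr19:34602053-34602082, minus strand: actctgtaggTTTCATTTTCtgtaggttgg
Ifit1, chr19:34640775-34640804, plus strand: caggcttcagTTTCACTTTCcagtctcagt
Cxcl9, chr5:92328030-92328059, minus strand: ctccaacacagTGACTCAatagaactcagc
In the Edn1, Ifit1bl1 and Ifit1 windows the element lies on the strand opposite to the gene, so the capitals show its reverse complement. Other genes described here held the letters too. The response element letters lay in the promoters of Ripk1 and Bub1b, called higher, and of Rbck1, Ncf1 and I830077J02Rik, called lower. They also lay in those of Cxcl10 and Rsad2, not called. The NF-κB letters lay in that of Cyld, called lower, and in those of Il6 and Cxcl2, not called. The AP-1 letters lay in those of Rc3h1, called higher, Pan2, called lower, and Il6, Rsad2 and Cxcl10, not called. Ifit1bl1 and Ifit1 both carry the letters of the element, but not in like arrangement. In the Ifit1 promoter they begin at -104 and again at -85 from the same start. In Ifit1bl1 they begin at -104 and at -23 of separate starts, and for both genes only a window at -104 is shown. The difference between the stimuli was -4.24 (SE 0.61, adjusted p 3.77e-05) for Ifit1bl1 and 0.09 (95% interval -2.46 to 2.63) for Ifit1.

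Inflammatory cytokine genes were called higher in LPS+zVAD more often than lower. Of 23 inflammatory cytokine genes tested, 7 were called higher and 1 lower, against 10.4% and 20.4% of all genes, with a median difference of 0.72 against -0.02 over all genes. With 1 array left out, 5, 4, 6 and 6 were called higher. Il1a, the alarmin interleukin-1 alpha, read 12.28 and 12.37 against 6.71 and 8.52 (4.71, SE 1.54, adjusted p 0.0261). Tnfsf15, the TNF-like ligand TL1A, read 13.78 and 13.73 against 8.82 and 10.33 (4.18, SE 0.88, adjusted p 0.00123). Inhba, the activin A subunit (2.99), Il19 (2.93) and the decoy ligand Il1rn (2.28), named after their values were seen, were higher too, Inhba not without LPS+zVAD replicate 2 (adjusted p 0.14) or IFNβ+zVAD replicate 1 (0.347), as was Il10 (2.03, adjusted p 0.0462), an anti-inflammatory cytokine. The one cytokine called lower was Tnfsf10, the death ligand TRAIL and an interferon target, at 12.03 and 11.64 against 14.72 and 14.05 (-2.55, SE 0.66, adjusted p 0.00591). The Il1a call was lost without either LPS+zVAD array or without IFNβ+zVAD replicate 1 (3.81, adjusted p 0.172), the Il10 call without either LPS+zVAD array or IFNβ+zVAD replicate 2 (1.33, adjusted p 0.332), and the Tnfsf10 call without LPS+zVAD replicate 2 (-2.36, adjusted p 0.0527) or IFNβ+zVAD replicate 1.

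The classical LPS cytokines Tnf, Il6 and Il1b were not called in the main fit. Tnf read 18.27 and 17.95 against 15.46 and 15.96 (2.40, 95% interval 0.08 to 4.73, adjusted p 0.115). Il6 read 16.12 and 14.86 against 12.76 and 13.26 (2.48, 95% interval -0.88 to 5.83, adjusted p 0.277), and Il1b read 15.98 and 15.48 against 12.79 and 14.43 (2.12, adjusted p 0.425). Against untreated cells, Tnf was 7.76 higher in LPS+zVAD (adjusted p 1.03e-05) and 5.36 in IFNβ+zVAD (adjusted p 0.000847). With the Ifnar1-/- LPS+zVAD+Nec-1 pair left out of the shared spread, Tnf (adjusted p 0.0022), Il6 (0.000578) and Il1b (0.0329) were called higher in LPS+zVAD. A fit to the WT arrays alone also called Tnf (adjusted p 0.00128), Il6 (0.0121) and Il1b (0.0405) higher. Tnf was called higher in a fit to the compared arrays alone too (0.0388), and with arrays scaled to the same 75th percentile (0.0496). For Tnf, Il6 and Il1b the call thus depended on which arrays outside the comparison entered the shared spread, and for Tnf also on the scaling.

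Among 14 chemokines of the NF-κB class, 4 were called higher and none lower, where 10.4% and 20.4% of all genes were, with a median of 0.63. The replicate block gave 6 higher and 1 lower, and leaving out 1 array gave 3, 3, 2 and 4 higher. Ccl17, a chemokine for CCR4-bearing T cells, read 10.01 and 9.12 against 5.09 and 6.08 (3.98, SE 0.65, adjusted p 0.000135). Cx3cl1, the membrane-anchored fractalkine (2.17, adjusted p 0.0254), and Ccl9 (1.17, adjusted p 0.00188), named after its values were seen, joined Cxcl1. Cx3cl1 was not called without either LPS+zVAD array or without IFNβ+zVAD replicate 1 (1.31, adjusted p 0.279). Cxcl2, the neighbour of Cxcl1 with the same receptor, read 17.70 and 17.39 against 13.37 and 15.70 and was not called (3.01, 95% interval 0.01 to 6.02, adjusted p 0.127). It was called higher with the Ifnar1-/- LPS+zVAD+Nec-1 pair left out of the spread (adjusted p 0.0471), in a fit to the WT arrays alone (0.018) and with the authors' normalized values (0.0433).

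No NF-κB early response gene was called lower. Of 30 NF-κB early genes, 6 were called higher and none lower (median 0.63), against 10.4% and 20.4% of all genes. Nfkbiz, the atypical IκBζ, read 12.71 and 12.57 against 9.82 and 10.51 (2.48, adjusted p 0.0419), and Nfkb1, the p105/p50 subunit, read 13.77 and 14.02 against 11.97 and 12.53 (1.64, adjusted p 0.00554). Zc3h12a, the endoribonuclease Regnase-1, read 12.63 and 12.95 against 10.40 and 11.01 (2.09, adjusted p 0.0318). The calls of these genes were not firm. Nfkbiz lost its call whichever of the 4 arrays was left out (up to adjusted p 0.19), as did Zc3h12a (up to 0.17), and Nfkb1 lost it without IFNβ+zVAD replicate 1 (0.069) or LPS+zVAD replicate 2 (0.0505). The list's median difference was 1.15 between the replicate 1 arrays and 0.03 between the replicate 2 arrays, and leaving out 1 array gave 3, 1, 1 and 5 genes called higher.

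Of 35 immediate early genes, 9 were called higher and none lower (median 0.40), against the same 10.4% and 20.4%, or 13 and 2 with the replicate block and 8, 8, 5 and 12 higher with 1 array left out. Maff, a small MAF transcription factor, read 15.11 and 15.34 against 10.17 and 12.78 (3.75, SE 0.87, adjusted p 0.00271). Dusp14, a phosphatase of MAP kinases, read 9.04 and 10.35 against 4.64 and 7.83 (3.46, SE 0.73, adjusted p 0.00125). Hbegf, a ligand of the EGF receptor, read 14.10 and 14.79 against 10.80 and 11.75 (3.17, SE 0.54, adjusted p 0.000189). Hbegf was above untreated cells under both stimuli, 8.23 higher in LPS+zVAD and 5.06 higher in IFNβ+zVAD (adjusted p 2.47e-09 and 8.62e-07), whereas Dusp14 was called above them in LPS+zVAD (5.00, adjusted p 1.32e-05) and not in IFNβ+zVAD (1.54, adjusted p 0.109, or 0.0177 with the replicate block, 0.00128 without IFNβ+zVAD replicate 1 and 0.033 without untreated replicate 2). Leaving out IFNβ+zVAD replicate 1 ended the Maff call (2.44, adjusted p 0.0778). The list's median difference was 0.94 between the replicate 1 arrays and -0.08 between the replicate 2 arrays.

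**Figure D2:**
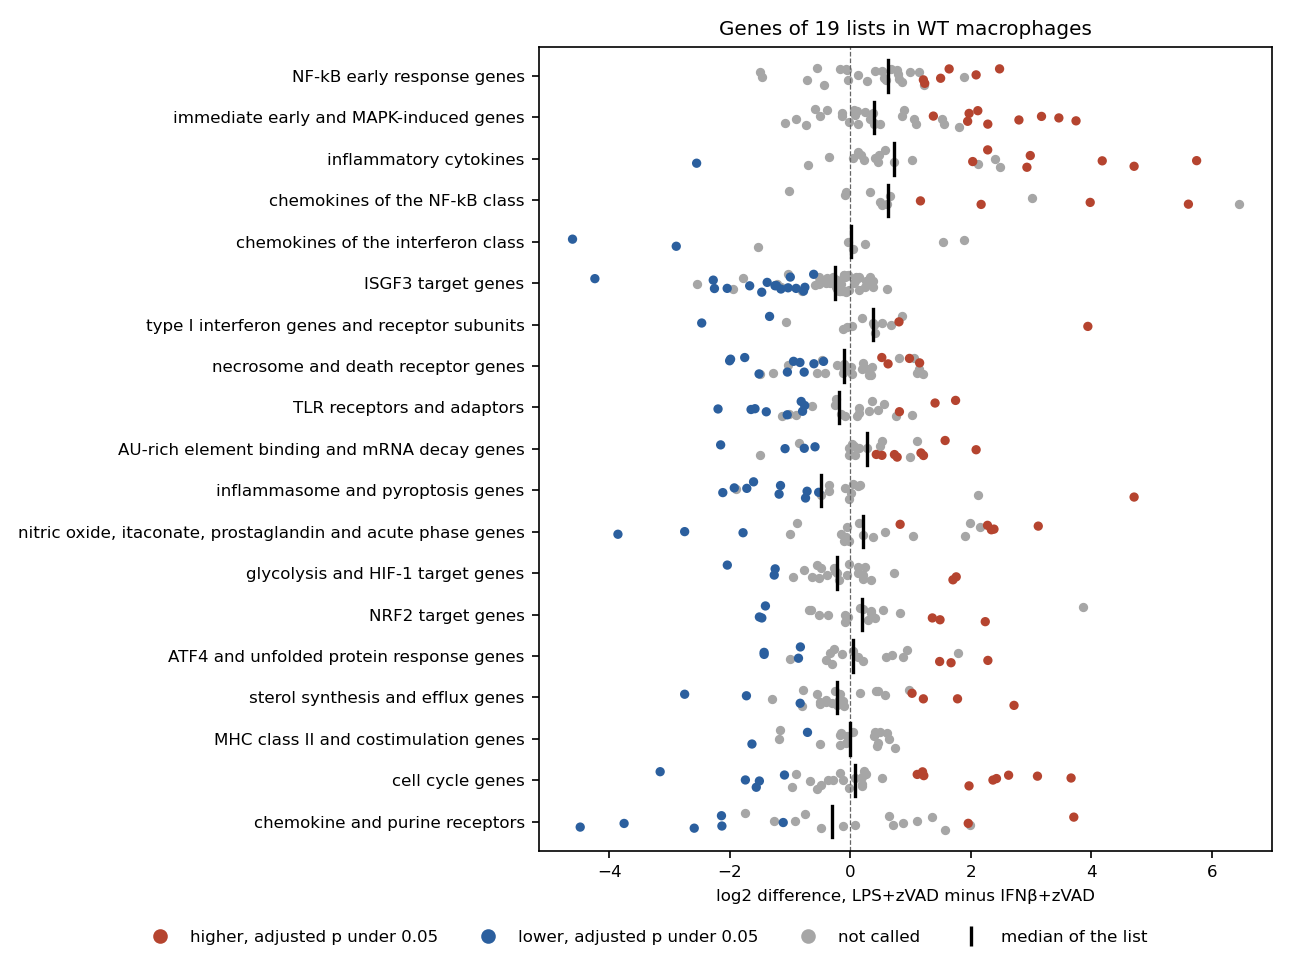
Difference LPS+zVAD minus IFNβ+zVAD (log2) for every tested gene of the 19 gene lists, one point per gene, red where called higher, blue where called lower and grey where not called, with the median of each list as a black bar and 0 as a dashed line. The bar of the inflammatory cytokines lies at 0.72 and that of the ISGF3 targets at -0.25.

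Genes that ISGF3 drives were induced by both stimuli. Of 66 such genes tested, 58 were called higher than in untreated cells under LPS+zVAD, where 51.1% of all genes were called, 18.4% higher and 32.8% lower, and 61 under IFNβ+zVAD, where 37.6% were called, 14.5% higher and 23.1% lower. Between the stimuli, 16 were called lower in LPS+zVAD and none higher (24.2% of them, where 20.4% of all genes were lower and 10.4% higher, with a median of -0.25), while for 23 the 95% interval lay within 1 log2 unit of 0. Ifit1, an inhibitor of viral RNA translation, read 16.93 and 16.72 against 16.90 and 16.57, and Cxcl10, a chemokine for CXCR3-bearing T cells, read 18.22 and 17.91 against 18.11 and 17.92 (0.05, 95% interval -2.11 to 2.20). The groups overlapped for both genes. Mx1, an antiviral GTPase, read 16.23 and 16.01 against 17.31 and 17.22 and was not called in the main fit (-1.15, adjusted p 0.394). Under normexp background correction it was called lower in LPS+zVAD (-1.15, adjusted p 0.0413).

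The share of ISGF3 targets called lower was thus near that of all genes. Ifit1bl1, a paralog of Ifit1, read 13.63 and 11.56 against 17.22 and 16.44. Samhd1, a dNTP hydrolase that restricts retroviruses, read 15.55 and 14.60 against 17.39 and 17.31 (-2.27, SE 0.32, adjusted p 3.64e-05). Stat2, named after its values were seen, read 14.50 and 14.51 against 16.07 and 16.28 (-1.67, SE 0.37, adjusted p 0.00197). Irf7, the factor that amplifies interferon production, read 15.20 and 15.60 against 16.46 and 16.64 (-1.15, adjusted p 0.0458). Irf7 lost its call whichever of the 4 arrays was left out (up to adjusted p 0.211). When arrays were scaled by setting their 75th percentiles equal, and not by quantile normalization, 9 of the ISGF3 targets were called lower, and leaving out 1 array gave 8, 11, 10 and 10.

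Further genes known to be induced by interferons were called lower in LPS+zVAD. Gbp4 read 9.51 and 9.44 against 13.97 and 14.30 (SE 0.72, adjusted p 8.04e-05). The Fcγ receptors Fcgr1, at 14.21 and 12.30 against 16.56 and 16.24 (-3.14, adjusted p 0.00398), and Fcgr4, at 14.07 and 13.18 against 16.52 and 16.23 (-2.75, adjusted p 6.05e-06), were both lower. Fcgr1 is also a macrophage marker, and its call was lost without LPS+zVAD replicate 2 (-2.18, adjusted p 0.0934). Serpina3g, a protease inhibitor, was 3.06 lower on the log2 scale (adjusted p 0.00605), a call that ended without LPS+zVAD replicate 2 (0.0924) or IFNβ+zVAD replicate 1 (0.0655). Psmb8, Psmb9 and Psmb10, the catalytic subunits of the immunoproteasome, differed by -0.81, -2.02 and -0.92 (adjusted p 0.00591, 5.4e-05 and 0.00775), and the peptide transporter subunit Tap2 by -0.76 (0.00789). After scaling to the same 75th percentile Psmb9 was still called, but Psmb8, Psmb10 and Tap2 were not (adjusted p 0.168, 0.0879 and 0.215), and single arrays decided the calls of Psmb8 (0.0563 without IFNβ+zVAD replicate 1) and Psmb10 (0.0681 without LPS+zVAD replicate 2). Psmb9 read 14.26 and 14.09 in LPS+zVAD and 16.09 and 16.31 in IFNβ+zVAD, and like Fcgr4, Psmb8, Psmb10 and Tap2 it was named after its values were seen. Of 8 chemokines of the interferon class, Cxcl9 and Ccl8 were called lower (25.0%, near the 20.4% of all genes) and none higher, while the replicate block and the 75th percentile shift each gave 2 higher and 2 lower. Cxcl9 read 12.35 and 9.53 against 15.57 and 15.53, and Ccl8 read 12.58 and 10.94 against 15.20 and 14.09 (-2.89, adjusted p 0.00301), a call lost without LPS+zVAD replicate 2 (0.0743) or IFNβ+zVAD replicate 1 (0.0511).

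**Figure D3:**
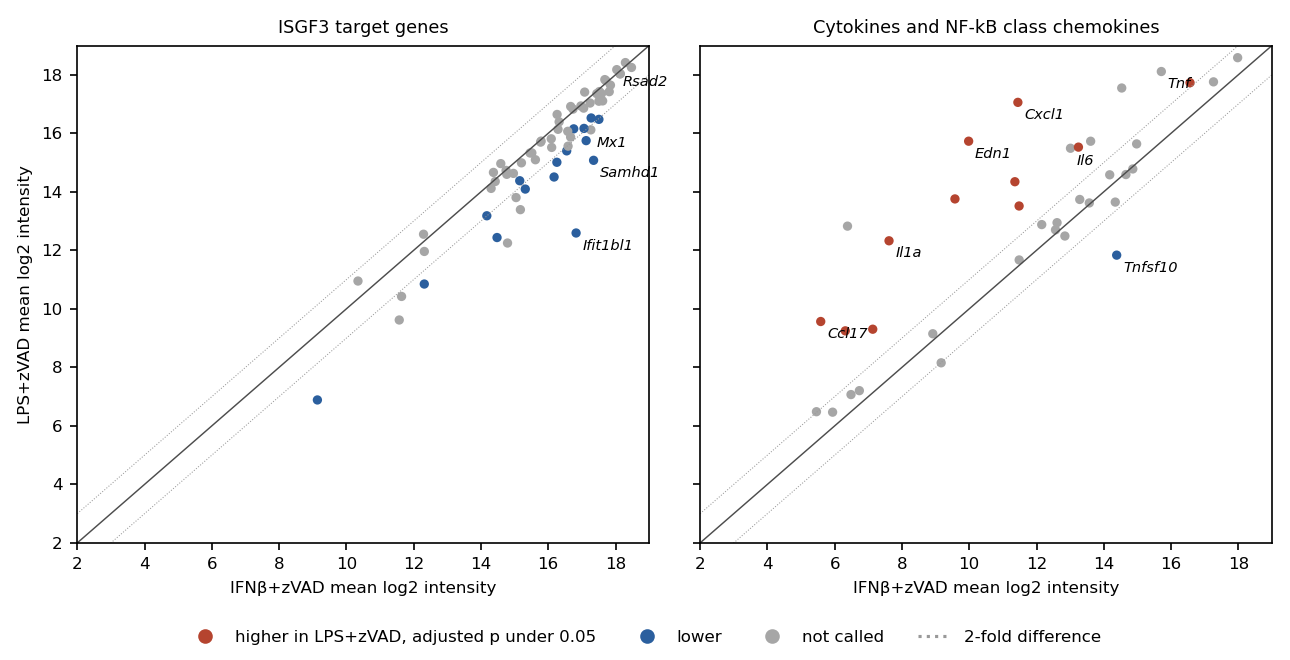
Mean log2 intensity of 2 arrays in LPS+zVAD (vertical) against that in IFNβ+zVAD (horizontal) for each tested gene of the ISGF3 list (left) and of the cytokine and NF-κB class chemokine lists (right), with a solid line where both are equal and dotted lines at a 2-fold difference. Points are red where called higher in LPS+zVAD, blue where called lower and grey where not called, so that Cxcl1 (5.61) lies above the solid line and Ifit1bl1 (-4.24) below it.

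The genes of interferon production and reception followed no common direction, with 2 of 15 called higher and 2 lower, near the shares of all genes, the 2 higher being lost without LPS+zVAD replicate 2 or IFNβ+zVAD replicate 1. Ifnb1, which encodes the interferon that was added to one of the groups, read 14.02 and 15.51 in LPS+zVAD and 10.12 and 11.53 in IFNβ+zVAD (3.94, SE 1.02, adjusted p 0.00589). It was above untreated cells under both stimuli, by 9.96 in LPS+zVAD and 6.02 in IFNβ+zVAD (adjusted p 2.18e-07 and 0.000137). The call between the stimuli was lost without LPS+zVAD replicate 2 (3.20, adjusted p 0.081) or IFNβ+zVAD replicate 1 (3.24, adjusted p 0.0734). The receptor kinases went opposite ways. Jak1 read 14.88 and 15.50 against 14.21 and 14.54 (0.81, SE 0.22, adjusted p 0.00748, or 0.159 without LPS+zVAD replicate 2 and 0.0928 without IFNβ+zVAD replicate 1), and Tyk2 read 10.86 and 9.91 against 12.92 and 12.78 (-2.46, SE 0.29, adjusted p 5.43e-06). Irf3, the factor through which TRIF induces Ifnb1, read 12.14 and 11.63 against 13.21 and 13.24 (-1.34, SE 0.21, adjusted p 8.52e-05). The Ifnar1 probe read 12.38 and 11.18 in LPS+zVAD and 12.81 and 12.87 in IFNβ+zVAD (-1.06, adjusted p 0.256), against 14.22 and 14.19 in untreated WT cells and 11.16 to 12.44 on the Ifnar1-/- arrays, so the LPS+zVAD arrays lay within the range of the knockout arrays. The knockout arrays were on other slides than the WT arrays. Which part of the gene this probe covers relative to the knocked-out part is not given in the sources used here, so the probe does not check the genotype.

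Receptors and adaptors of the TLR pathway were called in both directions. Of 28 tested, 3 were called higher and 8 lower, against 10.4% and 20.4% of all genes, or 7, 5, 4 and 7 lower with 1 array left out. Tlr4, the LPS receptor, read 10.62 and 10.51 in LPS+zVAD and 12.36 and 12.07 in IFNβ+zVAD (-1.65, SE 0.34, adjusted p 0.00111), against 12.08 and 12.32 in untreated cells. The nucleic acid sensors Tlr13 (-1.58, adjusted p 0.000533) and Tlr8 (-2.19, adjusted p 0.00521) were lower as well, Tlr8 not without LPS+zVAD replicate 2 (-1.30, adjusted p 0.141) or IFNβ+zVAD replicate 1 (adjusted p 0.062). Ticam1, which encodes TRIF, read 12.35 and 13.38 against 11.20 and 11.72 (1.41, SE 0.26, adjusted p 0.000421). Myd88, named after its values were seen, read 14.70 and 14.47 against 15.45 and 15.30 (-0.79, SE 0.23, adjusted p 0.0113), so that the genes of the 2 adaptors differed in opposite directions. The Myd88 call ended after the 75th percentile shift (adjusted p 0.0964), without LPS+zVAD replicate 2 (0.0975) or without IFNβ+zVAD replicate 1 (0.0796). Tollip, an inhibitor of TLR signalling, read 14.44 and 14.68 against 12.44 and 13.19 (1.75, SE 0.23, adjusted p 1.7e-05).

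In the necrosome and death receptor list, 4 of 38 genes were called higher and 10 lower in LPS+zVAD, near the 10.4% and 20.4% of all genes, and 15 had an interval within 1 log2 unit of 0. With 1 array left out, 2, 1, 2 and 5 were called higher and 11, 7, 8 and 9 lower. Ripk1, the kinase that starts the necrosome, read 13.37 and 13.67 in LPS+zVAD and 12.61 and 12.47 in IFNβ+zVAD (0.98, SE 0.16, adjusted p 0.000116), with 12.13 and 11.86 in untreated cells. Ripk3, its partner kinase, read 12.92 and 13.86 against 12.36 and 12.11 (1.15, SE 0.28, adjusted p 0.00407), and 11.21 and 11.33 in untreated cells. For Ripk3 the call was lost without LPS+zVAD replicate 2, where the difference was 0.68. Mlkl, the executioner, read 14.29 and 14.88 against 14.82 and 14.54 and was not called (-0.10, 95% interval -0.66 to 0.47). It was 3.87 above untreated cells in LPS+zVAD and 3.97 above them in IFNβ+zVAD (adjusted p 3.63e-09 and 5.6e-09). Zbp1, the interferon-induced sensor that can recruit RipK3, read 15.60 and 15.52 against 16.55 and 16.63 and was not called (-1.03, adjusted p 0.176), but was called lower in LPS+zVAD with the Ifnar1-/- LPS+zVAD+Nec-1 pair left out of the spread (adjusted p 0.00175).

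Enzymes that cut RipK1 or act on its ubiquitin chains were called in both directions. Otulin, the deubiquitinase of linear chains, read 13.42 and 13.44 against 12.41 and 13.19 (0.63, SE 0.20, adjusted p 0.0239), a call lost without either LPS+zVAD array, without IFNβ+zVAD replicate 1 (0.24, adjusted p 0.423) or after the 75th percentile shift (adjusted p 0.066). Casp8, the protease that zVAD inhibits and that cleaves RipK1 and RipK3, read 12.86 and 12.72 against 14.87 and 14.21 (-1.75, SE 0.23, adjusted p 1.64e-05). Cyld, a deubiquitinase that strips ubiquitin from RipK1, read 7.50 and 6.80 against 9.03 and 9.24 (-1.99, SE 0.30, adjusted p 5.74e-05) and is known to favour the necrosome rather than to restrain it. Rbck1, the HOIL-1 subunit of the linear ubiquitin ligase LUBAC that modifies RipK1, read 12.68 and 11.78 against 14.46 and 13.999 (-2.0, SE 0.24, adjusted p 6.09e-06). The other LUBAC subunits, named after their values were seen, were lower too, Rnf31 (HOIP) at 13.38 and 13.20 against 14.19 and 14.06 (-0.83, adjusted p 0.00245) and Sharpin at 13.84 and 13.48 against 14.51 and 14.34 (-0.76, adjusted p 0.000406). Rnf31 was above untreated cells under both stimuli (0.89 and 1.72), whereas Rbck1 was below them in LPS+zVAD (-1.80, adjusted p 3.98e-06) and not called in IFNβ+zVAD (0.21, adjusted p 0.55). The TNF receptor gene Tnfrsf1a (-0.94, adjusted p 0.000801) and its adaptor Tradd (-1.04, adjusted p 2.88e-05), also named after their values were seen, were lower. With the Ifnar1-/- LPS+zVAD+Nec-1 pair left out of the spread, 7 genes of the list were called higher and 12 lower.

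**Figure D4:**
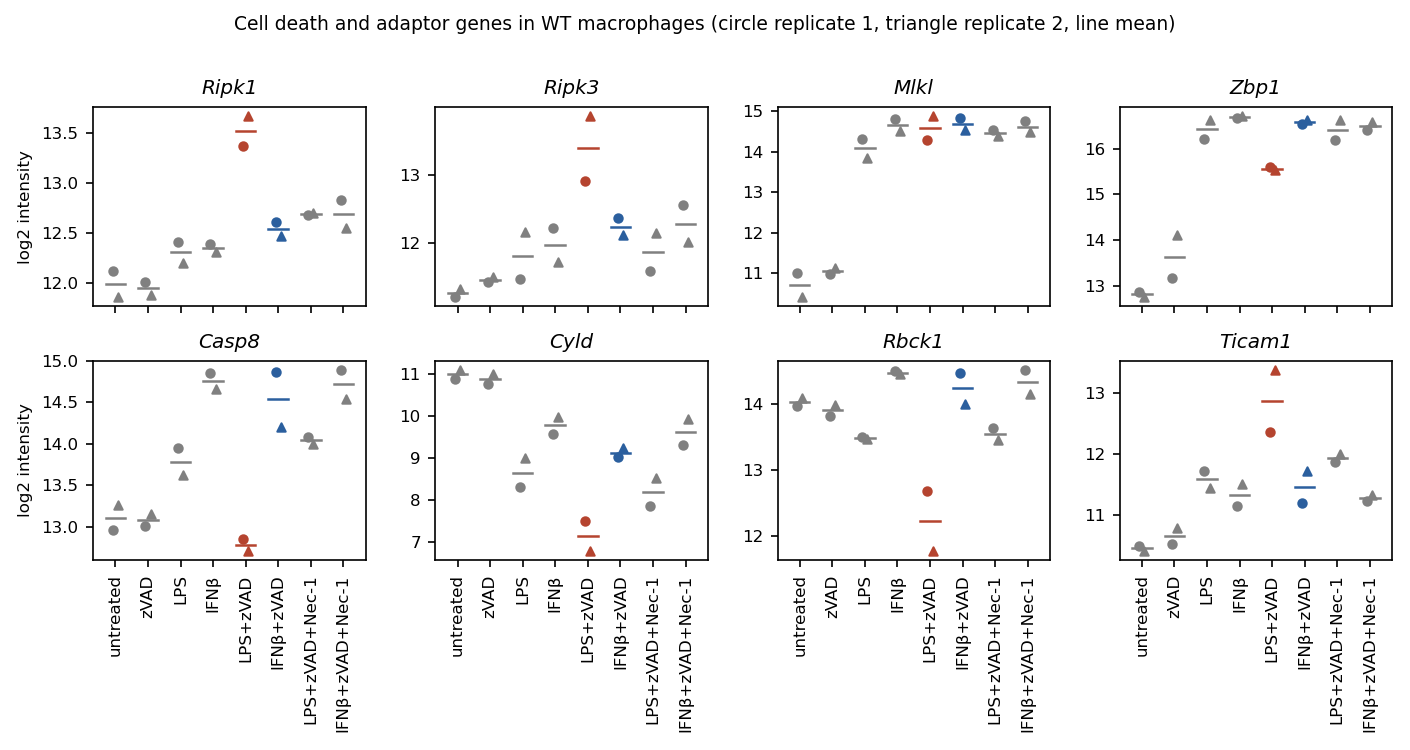
Normalized log2 intensity of Ripk1, Ripk3, Mlkl, Zbp1, Casp8, Cyld, Rbck1 and Ticam1 under the 8 WT treatments, with a circle for replicate 1, a triangle for replicate 2 and a line at their mean; each gene has its own vertical axis, which does not start at 0. The Ripk1 points of LPS+zVAD (13.37 and 13.67) lie above those of every other WT treatment, and the Mlkl points of LPS+zVAD (14.29 and 14.88) and IFNβ+zVAD (14.82 and 14.54) overlap.

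Genes that bind AU-rich elements or degrade mRNA, which set how long cytokine transcripts last, were called higher in 8 of 25 cases and lower in 4, against 10.4% and 20.4% of all genes, with 7, 3, 2 and 5 higher when 1 array was left out. Rc3h1, the RNA-binding protein Roquin-1, read 12.38 and 12.56 against 11.07 and 11.44 (1.22, adjusted p 0.0011). Parn, a poly(A) ribonuclease, read 8.32 and 7.20 against 9.99 and 9.83 (-2.15, SE 0.26, adjusted p 7.37e-06), and the deadenylase subunit Pan2 differed by -1.08 (adjusted p 0.00067). Zfp36, whose product tristetraprolin destabilises Tnf mRNA, read 14.83 and 14.21 against 13.66 and 14.32 and was not called (0.53, 95% interval -0.63 to 1.69).

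Inflammasome and pyroptosis genes were called lower in LPS+zVAD in 9 of 21 cases, against 20.4% of all genes, and the gene called higher was the cytokine Il1a. With 1 array left out, 7, 6, 6 and 7 were lower. Gsdme, a gasdermin cleaved by caspase-3, read 9.16 and 9.14 against 10.82 and 11.71 (-2.11, adjusted p 0.001). Aim2, the cytosolic DNA sensor, read 8.37 and 7.89 against 9.96 and 10.14 (-1.92, adjusted p 7.38e-05), and Naip6, a flagellin sensor of a multigene family whose probes may share signal, differed by -1.72 (adjusted p 9.35e-06). The adaptor gene Pycard, which encodes ASC, read 12.95 and 12.18 against 14.48 and 13.86 (-1.60, adjusted p 0.000214), and Casp1 read 15.95 and 15.69 against 16.97 and 16.98 (-1.16, adjusted p 0.000407). Casp1 was above untreated cells under both stimuli (0.84 and 1.99), while Pycard was below them in LPS+zVAD (-1.95, adjusted p 9.19e-06). Pycard and Casp1 were named after their values were seen.

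Of the nitric oxide, prostaglandin and acute phase genes, 5 of 23 were called higher and 3 lower, against 10.4% and 20.4%, with 3, 2, 1 and 5 higher when 1 array was left out. Slpi, an antiprotease, read 14.91 and 16.11 against 11.83 and 12.94 (3.12, adjusted p 0.00287), lost without LPS+zVAD replicate 2 (adjusted p 0.0537). The arginases went opposite ways, with mitochondrial Arg2 at 2.38 (adjusted p 0.0233) and cytosolic Arg1 at least 8.42-fold brighter in IFNβ+zVAD (adjusted p 0.0107). Arg1 was not well above background on either LPS+zVAD array, and its call ended under normexp background correction (-1.25, adjusted p 0.0799). Both calls ended without IFNβ+zVAD replicate 1 (1.38 and -2.79) or without LPS+zVAD replicate 2, that of Arg2 also without LPS+zVAD replicate 1. Ncf1, the p47phox subunit of the phagocyte oxidase, read 12.74 and 12.07 against 14.27 and 14.10 (-1.78, SE 0.22, adjusted p 9.37e-06). Ptgs2, the inducible cyclooxygenase, was not called (1.99, 95% interval -1.03 to 5.02).

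The stress, metabolic and antigen presentation lists had shares of called genes near or below the 10.4% higher and 20.4% lower of all genes, so their genes are given singly. In the unfolded protein response, Ern1, the sensor IRE1, read 11.72 and 12.10 in LPS+zVAD and 9.27 and 9.98 in IFNβ+zVAD (2.28, SE 0.26, adjusted p 4.61e-06), while Xbp1, whose mRNA IRE1 splices, read 14.70 and 13.73 against 15.86 and 15.42 (-1.43, SE 0.25, adjusted p 0.000291). Dnajb9, a chaperone of the endoplasmic reticulum, was higher (1.48, adjusted p 3.19e-06). In all, 3 of 21 genes of that list were called higher and 4 lower. Gclc, the rate-limiting enzyme of glutathione synthesis, read 12.81 and 12.83 against 10.23 and 10.93 (2.24, SE 0.26, adjusted p 4.84e-06), and Keap1, the inhibitor of NRF2, was lower (-1.47, adjusted p 1.85e-05), in an NRF2 list with 3 of 22 called each way, or 5 higher and 6 lower with the replicate block. Hexokinase 2 (Hk2) was higher (1.76, adjusted p 0.000208), with 2 of 25 glycolysis and HIF-1 targets called higher and 3 lower. Insig1, which retains the sterol sensor SCAP in the endoplasmic reticulum, read 13.04 and 12.55 against 10.29 and 9.86 (2.72, SE 0.37, adjusted p 2.62e-05), with 4 of 27 sterol genes called higher and 3 lower, or 5 and 6 with the replicate block. Of 20 genes of MHC class II and costimulation, 2 were called lower and none higher, and with the replicate block 3 were called higher and 2 lower.

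Cell cycle genes were called in both directions. Of 31 tested, 9 were called higher and 5 lower in LPS+zVAD, against 10.4% and 20.4% of all genes. Ccne1, the cyclin of entry into S phase, read 12.96 and 14.18 against 10.10 and 9.72 (3.66, SE 0.31, adjusted p 2.72e-07). Cdc6, which is no member of that list and helps to load the replicative helicase, read 8.95 and 10.42 against 5.11 and 4.21 (SE 0.45, adjusted p 4.35e-07), and 6.75 and 7.20 in untreated cells, between the groups. The spindle checkpoint genes Bub1b (3.11, adjusted p 4.8e-05) and Cdc20 (2.63, adjusted p 0.000288) were higher. Against untreated cells Bub1b was 0.86 in LPS+zVAD (adjusted p 0.125) and -2.24 in IFNβ+zVAD (adjusted p 0.000735). Without LPS+zVAD replicate 1 the LPS+zVAD value was 1.71 and called (adjusted p 0.00473). All 3 D cyclins were lower, Ccnd1 at 11.88 and 12.43 against 15.40 and 15.21 (-3.15, SE 0.43, adjusted p 2.59e-05), Ccnd2 by 1.74 (adjusted p 0.00467) and Ccnd3 by 1.56 (adjusted p 0.000171) on the log2 scale.

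Of 22 chemokine and purine receptor genes, 2 were called higher and 6 lower, near the shares of all genes, or 5 and 9 with the replicate block. P2ry2, the ATP and UTP receptor that senses dying cells, read 14.46 and 14.92 against 9.61 and 12.35 (3.71, SE 0.74, adjusted p 0.000789). P2ry12 read 8.24 and 7.87 against 12.15 and 11.46 (-3.75, adjusted p 0.000972) and P2ry13 read 6.36 and 6.61 against 11.15 and 10.77 (adjusted p 9.07e-06), both ADP receptors. P2ry14, a UDP-glucose receptor named after its values were seen, read 11.73 and 12.35 against 14.18 and 14.16 (-2.13, adjusted p 0.000155). P2rx4, an ATP-gated channel likewise named after its values were seen, read 15.17 and 15.27 against 16.30 and 16.36 (-1.11, adjusted p 6.31e-05), opposite to P2ry2. P2rx7, another ATP-gated channel, was not called (-0.48, adjusted p 0.29). Against untreated cells, P2ry13 was -2.09 in LPS+zVAD (adjusted p 0.00373, or 0.0758 without untreated replicate 2) and 2.39 in IFNβ+zVAD (adjusted p 0.00215).

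To ask how much of the contrast belongs to the ligands themselves, LPS was compared with IFNβ without zVAD, on separate arrays. There 3252 genes were called (20.5%), 1466 higher with LPS (9.23%) and 1786 lower (11.2%), or 5397 with the slide as a replicate block and 1996 without IFNβ replicate 1. Of the 1651 genes called higher with zVAD, 464 were also higher without it, 28.1% of the first list and 31.7% of the second, and of the 3237 called lower, 902 were also lower, 27.9% and 50.5%. Across genes the correlation of the differences was 0.39, over genes that are not independent. The interaction, the difference with zVAD minus that without, was called for 2591 genes (16.3%), 879 above 0 (5.54%) and 1712 below (10.8%). It was called for 4810 genes with the replicate block, and for 1359, 1679 and 1334 without LPS replicate 2, IFNβ replicate 1 and LPS+zVAD replicate 2. Cdc6 had the largest called positive interaction (7.42, SE 0.64, adjusted p 4.66e-06). It read 2.85 and 3.97 under LPS alone and 5.65 and 5.97 under IFNβ alone, where it was lower with LPS (-2.40, adjusted p 0.000897). That call ended under normexp background correction (adjusted p 0.119) and with the mean of the probes of the gene (-1.48, adjusted p 0.124). Under LPS alone Cdc6 was not well above background on either array, so that it was at least 4.59-fold brighter with IFNβ alone and the interaction rests on a dim value. Tmem144, a membrane protein, turned the same way. Without zVAD it was at least 6.66-fold brighter with IFNβ (adjusted p 0.000528), with neither LPS array well above background. That call ended under normexp background correction (-1.07, adjusted p 0.149). With zVAD the difference was 3.12 (adjusted p 0.000993, interaction adjusted p 0.00014). The interaction was also called for Ripk1 (1.02, adjusted p 0.00464), with a difference of -0.04 (adjusted p 0.918) between the ligands alone. Cxcl1 was 5.49 without zVAD (adjusted p 0.0113, and 0.137 without IFNβ replicate 1 or 0.0788 without LPS replicate 1), with no call of its interaction (adjusted p 0.983), and Gbp4 was -3.64 (adjusted p 0.00134; interaction adjusted p 0.591).

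With Nec-1 added to both stimuli, fewer genes were called. Among 15878 genes, 1389 differed (8.75%), 575 higher with LPS (3.62%) and 814 lower (5.13%). Of these, 281 of the 575 (48.9%) were among the 1651 higher without Nec-1 (17%), and 514 of the 814 (63.1%) among the 3237 lower (15.9%), with a correlation of 0.47 across genes. With the slide as a replicate block 3161 genes were called, and 354, 830 and 368 without LPS+zVAD+Nec-1 replicate 1, LPS+zVAD+Nec-1 replicate 2 and IFNβ+zVAD+Nec-1 replicate 1. The difference itself changed with Nec-1 for 1449 genes (9.13%), 1018 above 0 (6.41%) and 431 below (2.71%), for 3555 with the replicate block, and for 462, 764, 724 and 732 without LPS+zVAD replicate 2, IFNβ+zVAD replicate 1, LPS+zVAD+Nec-1 replicate 2 and IFNβ+zVAD+Nec-1 replicate 1. Cdc6 was not called with Nec-1 (adjusted p 0.204), where neither LPS+zVAD+Nec-1 array was well above background, and its interaction, which rests on those dim arrays, was -6.02 (SE 0.64, adjusted p 5.29e-05). With the mean of the probes of the gene, the Cdc6 difference with Nec-1 was above 0 (1.04, adjusted p 0.399). The microtubule-associated gene Map10 was not well above background on either LPS+zVAD array and was at least 10.9-fold brighter in IFNβ+zVAD, whereas with Nec-1 the difference was 0.77 (adjusted p 0.605; interaction adjusted p 0.0105). That interaction was lost under normexp background correction (adjusted p 0.13) and without LPS+zVAD+Nec-1 replicate 2 or IFNβ+zVAD+Nec-1 replicate 1 (adjusted p 0.0599 and 0.0605). Ripk1 read 12.69 and 12.70 with LPS+zVAD+Nec-1 and 12.83 and 12.56 with IFNβ+zVAD+Nec-1, and its interaction was called (-0.99, SE 0.22, adjusted p 0.0107), though not without LPS+zVAD replicate 2 (0.0697), without IFNβ+zVAD+Nec-1 replicate 1 (0.0551) or after the 75th percentile shift (0.0515). Edn1 kept a difference of 6.65 under Nec-1 (adjusted p 0.00109) and Gbp4 one of -2.76 (adjusted p 0.0225), with neither interaction called (adjusted p 0.815 and 0.28). Under normexp background correction the Gbp4 interaction was called (2.01, adjusted p 0.0411). The Gbp4 difference under Nec-1 lost its call without LPS+zVAD+Nec-1 replicate 1 (adjusted p 0.24) or either IFNβ+zVAD+Nec-1 array (adjusted p 0.115 and 0.0825).

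In Ifnar1-/- cells, which cannot respond to the added or the secreted IFNβ through this receptor, 3964 genes differed between the stimuli (25%), 1603 higher with LPS+zVAD (10.1%) and 2361 lower (14.9%). The higher genes were 40.4% of those called, and 51.9% after scaling to the same 75th percentile. The replicate block gave 6735 calls, and 1663, 2570 and 1932 were made without LPS+zVAD replicate 1, LPS+zVAD replicate 2 and IFNβ+zVAD replicate 2 of the knockout. Of the 1651 genes higher in WT, 728 were higher in Ifnar1-/- cells, 44.1% of the first list and 45.4% of the second, and 1199 genes were lower in both, 37% and 50.8%, with a correlation of 0.50 across genes. The contrast differed between the genotypes for 1325 genes (8.34%), 838 with a more positive difference in Ifnar1-/- cells (5.28%) and 487 with a more negative one (3.07%). With the replicate block 3440 genes were called, without WT LPS+zVAD replicate 2 there were 716, and without LPS+zVAD replicates 1 and 2 and IFNβ+zVAD replicates 1 and 2 of the knockout in turn there were 792, 545, 725 and 737. ISGF3 targets were called in the first class for 22 of 66 genes and in the second for none. That direction largely follows from the genotype, since the added IFNβ cannot induce these targets through the missing receptor. Rsad2, the antiviral enzyme viperin, read 15.56 and 15.31 in Ifnar1-/- cells with LPS+zVAD and 8.74 and 7.11 with IFNβ+zVAD (7.51, SE 0.74, adjusted p 5.91e-06), against 18.26 and 18.09 and 18.10 and 17.97 in WT (0.14), an interaction of 7.37 (SE 1.05, adjusted p 0.000534). Ifit1 read 13.91 and 13.44 with LPS+zVAD and 8.09 and 6.07 with IFNβ+zVAD in Ifnar1-/- cells (6.59, adjusted p 0.000893; interaction adjusted p 0.0246). Il6 was not well above background on either IFNβ+zVAD array of Ifnar1-/- cells and was at least 1353-fold brighter with LPS+zVAD there (adjusted p 0.000129), with an interaction of 8.67 (SE 2.26, adjusted p 0.0233). The interactions of Il6 and Ifit1 were not firm, with adjusted p up to 0.0857 for Il6, without WT LPS+zVAD replicate 2, and up to 0.108 for Ifit1, without Ifnar1-/- IFNβ+zVAD replicate 2.

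Gbp4 and Cxcl9, lower with LPS+zVAD in WT, were not called between the stimuli in Ifnar1-/- cells. Gbp4 read 2.43 and 4.09 and 2.34 and 2.30 there, on arrays where it was not well above background (adjusted p 0.373; interaction 5.61, adjusted p 0.0029), and Cxcl9 read 7.12 and 6.92 and 6.79 and 5.57 (0.84, adjusted p 0.405; interaction 5.44, adjusted p 0.0024). Edn1 (at least 309.8-fold, adjusted p 1.24e-05, with neither IFNβ+zVAD array well above background), Olr1 (5.18, adjusted p 0.00334) and Cxcl1 (6.28, adjusted p 0.00455) were higher with LPS+zVAD in Ifnar1-/- cells too, with interactions of 4.43, -0.58 and 0.67 (adjusted p 0.0842, 0.901 and 0.912). With the replicate block the Edn1 interaction was called (adjusted p 0.0481). Cdc6 was the reverse, -1.38 in Ifnar1-/- cells (adjusted p 0.0319) against 5.03 in WT (interaction -6.41, SE 0.64, adjusted p 5.01e-05), and the call in Ifnar1-/- cells ended whichever of their 4 arrays was left out (up to adjusted p 0.19). For Ripk1 the difference in Ifnar1-/- cells was 0.45 (adjusted p 0.0427; interaction -0.53, adjusted p 0.157, or 0.04 with the replicate block), a call that ended whichever of the 4 knockout arrays was left out (up to adjusted p 0.15).

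**Figure D5:**
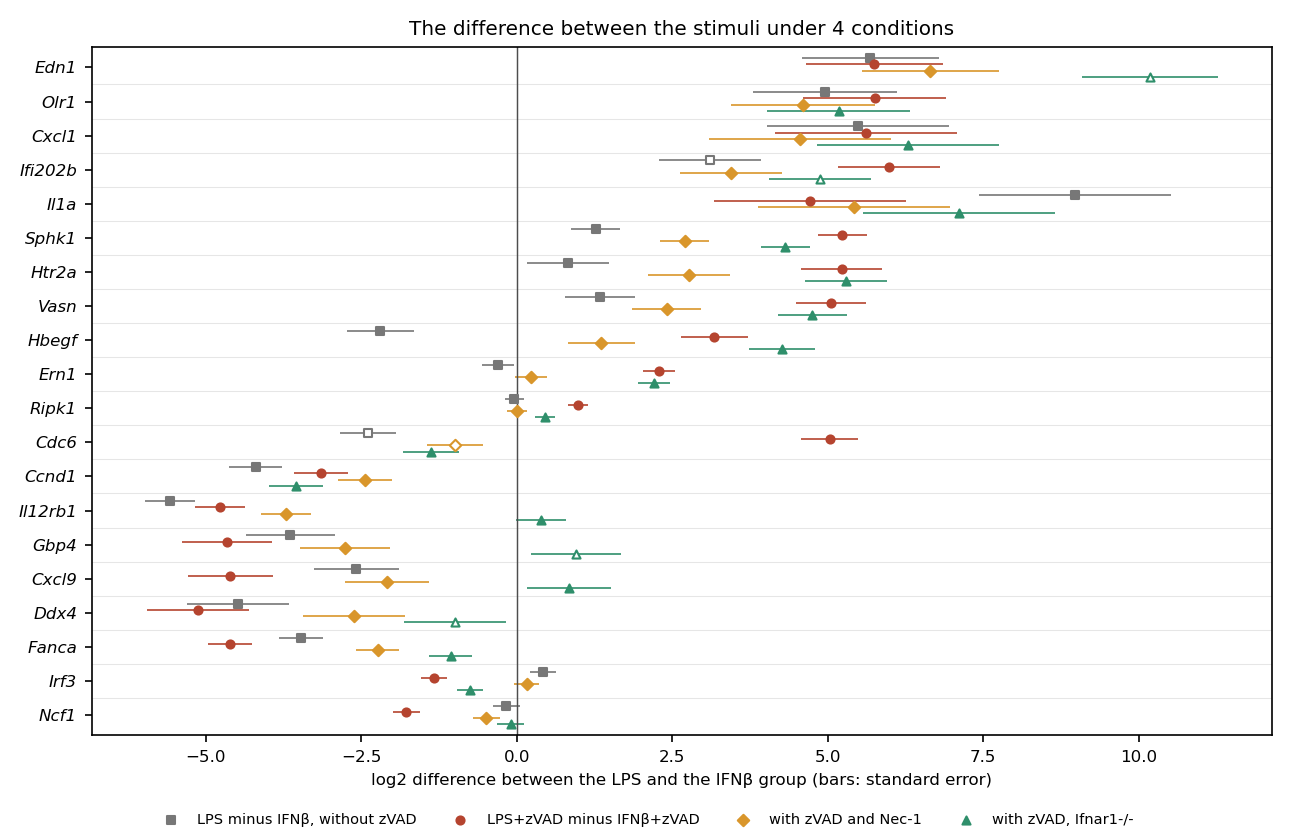
Difference between the LPS and the IFNβ arm (log2, bars give the standard error of the limma fit) for 20 genes in WT without zVAD (square), in WT with zVAD (circle), in WT with zVAD and Nec-1 (diamond) and in Ifnar1-/- cells with zVAD (triangle), with open symbols where an arm was not well above background on either of its arrays. On its brightest probe, Cdc6 is at 5.03 with zVAD in WT and below 0 in the other conditions. Cxcl9 is at -4.61 with zVAD in WT and 0.84 in Ifnar1-/- cells.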

How the data were processed

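Total RNA of the macrophages was labelled with Cy3 and hybridised to 32 one-colour Agilent mouse arrays, 2 for each of 16 groups defined by genotype and treatment in the labels. The deposited scanner files hold spot intensity, which per the file headers was background-subtracted and detrended within each array by the authors' scanner software. The deposited table of normalized values, on a log2 scale with column medians between 7.61 and 7.80 and made by the authors with limma, served as an alternative. For the values reported here, outlier spots were left out, the processed intensity was taken to log2, spots of a probe were averaged and arrays were quantile normalized. Probes well above background on at least 50% of arrays were retained (31892 of 55681), and a gene took its brightest retained probe, which left 15879 genes. Genes were named through a RefSeq table, by the accession of the probe (27650 probes), the symbol (3406) or a synonym (319), and 1497 probes kept the name of the array design. Group means were fitted with limma 3.58.1 in R 4.3.3, which left 16 residual degrees of freedom, and adjusted p is that of Benjamini and Hochberg across every gene tested; the fit was checked on simulated arrays. Promoters and figures were handled in Python 3.11.15 with pandas 2.3.3 and matplotlib 3.10.9. Where one group was not well above background on either array, a fold is a lower bound, the mean of the brighter group against the higher of the dim signal and the lowest signal well above background on that array. For arrays, the number of replicates limits the precision.

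Genes were named by rule among called genes that changed the same way on both slides and whose brighter group was well above background on both arrays. These were the 12 largest rises and 12 largest falls, the 3 largest each way in each list, the 6 largest each way in each interaction, and a set of reference genes; only some of those in the lists and interactions are described. The groups, gene lists, motifs and rules were chosen with earlier results of these data known. Replicate numbers marked a shared slide: the deviations of LPS+zVAD and IFNβ+zVAD replicates correlated at 0.44 across genes, and those of the 28 pairs of WT groups between 0.32 and 0.67. The replicate block adds the slide as a term. Alternatives covered scaling, background correction, the filter on dim probes, the probe of a gene, the slide, the arrays fitted, the variance prior, the authors' table and leaving out each array. One item is not reported here.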

Additional observations from a re-analysis of the deposited data

Results flagged for a closer look

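The difference between LPS+zVAD and IFNβ+zVAD was set against the same difference in Ifnar1-/- cells, and limma's interaction test found 1325 genes for which the 2 genotypes differed. Among the genes described, the interaction was positive, so that LPS+zVAD stood higher relative to IFNβ+zVAD without the receptor, for Il6 (8.67 on the log2 scale), Rsad2 (7.37), Ifit1 (6.50), Gbp4 (5.61) and Cxcl9 (5.44). It was negative for Cdc6 (-6.41). The Gbp4 value rests on Ifnar1-/- arrays that were not well above background, and the Il6 value on IFNβ+zVAD arrays of the same kind. Ifnar1-/- cells cannot respond to the added IFNβ through this receptor. The positive sign for the interferon targets Rsad2, Ifit1, Gbp4 and Cxcl9 therefore largely follows from the genotype. Gbp4 and Cxcl9 were not called between the stimuli in Ifnar1-/- cells, so their interactions mostly carry the fall seen in WT. The interactions of Il6 and Ifit1 were not firm, since leaving out single arrays ended their calls.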

How the results depend on the processing

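With 1 array left out, the count of called genes was 3229 to 4383 for LPS+zVAD against IFNβ+zVAD, 6584 to 7312 and 4240 to 4894 for LPS+zVAD and IFNβ+zVAD against untreated cells, 1996 to 2537 without zVAD, 1334 to 2968 for the zVAD interaction, 354 to 1165 with Nec-1, 462 to 2101 for the Nec-1 interaction, 1663 to 2698 in Ifnar1-/- cells and 545 to 1487 for the genotype interaction. A fit to the compared arrays alone called 846 genes for LPS+zVAD against IFNβ+zVAD, 3685 for IFNβ+zVAD against untreated cells, 657 without zVAD and 481 for the genotype interaction, and limma then called 0 for the zVAD interaction, with Nec-1 and for the Nec-1 interaction, where 3348, 2394 and 2599 genes had an unadjusted p under 0.05. Such a fit has fewer residual degrees of freedom. WT arrays alone gave 1694, 862 and 464 calls for those last comparisons. The replicate block and the slide as a random block called 5397 and 5235 genes without zVAD, 4810 and 4665 for the zVAD interaction, 3161 and 2992 with Nec-1, 3555 and 3409 for the Nec-1 interaction, 6735 and 6437 in Ifnar1-/- cells, and 3440 and 3310 for the genotype interaction. Among the genes described, the block changed no call beyond those of Dusp14, Edn1 and Ripk1 given in the text. The authors' values gave 867 calls for the Nec-1 interaction, and 2129 genes were called for the genotype interaction without the Ifnar1-/- LPS+zVAD+Nec-1 pair. The cause of these shifts was not tested beyond the numbers of arrays fitted.

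The other alternatives kept the total of each comparison within 1.5 times, but not every count in 1 direction. For LPS+zVAD against IFNβ+zVAD the replicate block called 2863 higher and the random block 2635. In Ifnar1-/- cells 1537 were lower after the shift to a common 75th percentile. Without the Ifnar1-/- LPS+zVAD+Nec-1 pair, 1247 were lower with Nec-1 and 722 below 0 in the Nec-1 interaction. Arrays whose loss moved only such a count were LPS replicate 2 (786 higher without zVAD), IFNβ replicate 2 (1092 lower without zVAD), IFNβ+zVAD replicate 1 (567 above 0 in the zVAD interaction), IFNβ+zVAD+Nec-1 replicate 2 (531 lower with Nec-1), and LPS+zVAD replicate 1 and LPS+zVAD+Nec-1 replicate 1 (763 and 218 below 0 in the Nec-1 interaction). The shift to a common 75th percentile moved the median over all genes from -0.02 to 0.11 for LPS+zVAD against IFNβ+zVAD and the share of higher genes among those called from 33.8% to 37.1%. That share went from 38.6% to 48.6% for IFNβ+zVAD and from 35.9% to 45.7% for LPS+zVAD against untreated cells.

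No value that changed sign was called after the change. With the mean of probes, Cxcl10 was -0.12 and the Cdc6 difference with Nec-1 was 1.04. The 75th percentile shift put Mlkl at 0.10 and Ripk1 without zVAD at 0.051, where the authors' values gave 0.0096. With 1 array left out, Cxcl10 ran from -0.11 to 0.20, Ifit1 from -0.074 to 0.25, Mlkl from -0.39 to 0.20, Ripk1 without zVAD from -0.14 to 0.066, Map10 with Nec-1 from -0.092 to 1.63, Rbck1 and Dusp14 in IFNβ+zVAD against untreated cells from -0.027 to 0.44 and from -0.054 to 3.13, the genotype interactions of Cxcl1 and Olr1 from -0.40 to 1.74 and from -1.67 to 0.51, and the zVAD interaction of Cxcl1 from -1.19 to 1.43. Of all values of described genes recomputed with 1 array left out, 682 stayed on their side of the threshold, 89 lost their call, 3 gained one and 18 changed sign. Under the other alternatives these numbers were 2216, 101, 23 and 5. The 2216 take in the differences within each slide, which have no p and counted as kept unless a called gene changed sign. Genes picked by rule for their difference between the stimuli had to change the same way on both slides. For them these within-slide values could not fail. Promoter shares under another fold limit were not compared, since the comparison is void.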
